A study of Mus musculus with 10 samples.

Results

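Zfp genes encode zinc finger proteins, and the regions described here are the CUT&RUN regions of IKZF2 (Helios) that lie near them. A region was taken when it lay within 5 kb of the span of an autosomal protein-coding gene whose RefSeq symbol is Zfp and a digit. Beyond the use of the deposited region set, the rule uses no measured signal. How that set was called is not stated, and counts of regions per gene or per length depend on it. The rule took 1236 of the 151133 regions in the deposited set, around 388 genes on all 19 autosomes, and each region has a read count in every library. RN2 cells were used throughout, a mouse leukaemia line of strain C57BL/6 driven by MLL-AF9 and NRASG12D. All of them carried a retrovirus for murine IKZF2 and RFP, and were sorted and kept in culture for 2 weeks, so every value comes from cells with added IKZF2. In CUT&RUN an antibody brings a nuclease to the protein, and the released DNA is sequenced. The labels give 6 samples with the anti-IKZF2 antibody, which are 3 libraries with 2 technical replicates each, and 4 samples with a control rabbit antibody, which were not analysed here. No level below has therefore been set against a control antibody.

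The proteins of this family bind DNA through repeated fingers of the C2H2 type. Many also carry a KRAB domain, which recruits TRIM28 and, through it, the histone methyltransferase SETDB1 to silence retroelements and imprinted loci. The family grew by tandem duplication, so its genes lie in clusters as well as alone. Helios is itself a zinc finger protein of the Ikaros family, which binds DNA at sites with the core TGGGAA and has been studied in MLL-AF9 leukaemia for its part in the self-renewal of leukaemic stem cells.

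A gene was called clustered when another Zfp gene lay within 200 kb, and single otherwise. That gave 241 clustered genes in 51 clusters and 147 single genes. A region within 5 kb of either end of a gene was called an end region, of which there were 668 (376 by clustered and 292 by single genes). The other 568 lay inside a gene and over 5 kb from both ends, and are called body regions. Of the 388 genes, 346 had at least 1 region and 42 had none. An end region was present at 312 genes (80.4%), against 77.4% of the 20665 autosomal protein-coding genes. Regions were short, with a median width of 110 bp (90 to 820 bp). Of the 1236, 165 (13.3%) also lay within 5 kb of a gene outside the family, and 38 belonged to more than 1 Zfp gene. Library totals were 1675237, 1570251 and 2081455 reads in regions, and over the libraries the first technical replicates summed to 900078 reads and the second to 4426865. A median end region held 34 reads over the 3 libraries, and a body region 31, so values of single regions are imprecise.

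Promoters with a region are shown first, because the clearest pattern in these data lies at gene starts. Each line is a 300-base window from RefSeq (mm10, GRCm38), from 250 bases before to 50 after the gene's start and read along the gene's strand. Capitals mark the bases that a deposited region covers. The edges may be off by 1 base, since it is not stated whether starts were counted from 0 or 1. Zfp809 (chr9:22225453-22225752) and Zfp955a (chr17:33255096-33255395) are clustered genes, and Zfp958 (chr8:4612920-4613219) and Zfp322a (chr13:23369159-23369458) are single genes.
Zfp809: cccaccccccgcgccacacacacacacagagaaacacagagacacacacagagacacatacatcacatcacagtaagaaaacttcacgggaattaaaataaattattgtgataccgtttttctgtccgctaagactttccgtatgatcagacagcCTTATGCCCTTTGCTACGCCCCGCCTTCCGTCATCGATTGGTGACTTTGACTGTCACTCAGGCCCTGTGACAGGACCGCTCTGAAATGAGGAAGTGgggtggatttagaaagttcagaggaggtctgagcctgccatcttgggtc
Zfp955a: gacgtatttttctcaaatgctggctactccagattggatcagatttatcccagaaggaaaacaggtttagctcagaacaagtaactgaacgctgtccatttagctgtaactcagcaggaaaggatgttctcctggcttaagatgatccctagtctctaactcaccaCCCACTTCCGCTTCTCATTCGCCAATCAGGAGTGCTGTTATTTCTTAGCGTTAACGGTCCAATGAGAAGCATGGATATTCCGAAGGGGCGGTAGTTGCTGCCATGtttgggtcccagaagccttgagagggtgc
Zfp958: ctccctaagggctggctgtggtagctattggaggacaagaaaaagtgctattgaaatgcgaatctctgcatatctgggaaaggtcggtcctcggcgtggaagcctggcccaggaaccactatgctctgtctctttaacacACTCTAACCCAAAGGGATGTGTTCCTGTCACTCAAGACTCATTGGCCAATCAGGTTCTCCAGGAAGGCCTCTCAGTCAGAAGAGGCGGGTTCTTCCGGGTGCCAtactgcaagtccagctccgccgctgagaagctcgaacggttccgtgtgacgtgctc
Zfp322a: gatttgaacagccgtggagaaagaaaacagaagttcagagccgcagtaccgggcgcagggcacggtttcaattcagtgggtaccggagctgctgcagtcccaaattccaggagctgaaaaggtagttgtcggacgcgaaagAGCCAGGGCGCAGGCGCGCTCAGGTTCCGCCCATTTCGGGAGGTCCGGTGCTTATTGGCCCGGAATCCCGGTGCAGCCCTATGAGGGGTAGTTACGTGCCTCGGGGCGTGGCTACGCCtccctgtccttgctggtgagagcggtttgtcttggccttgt
In these 4 windows the region covered 96, 105, 104 and 118 bases. The ETS core CCGGAA lay within the covered bases of Zfp958 and Zfp322a, and not in the windows of the other two. The Ikaros core TGGGAA was found once, in the Zfp958 window, outside the covered bases. Both were searched on both strands.

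Regions near Zfp gene starts held more reads per length than regions elsewhere along Zfp genes. Each class pools regions over genes, and starts and bodies were not paired by gene. Levels are in CPM per kb: the reads of a class were pooled in each library, scaled to that library's total in regions and divided by the summed width. Strand, and with it the start, was known for 325 of the 388 genes. The 150 regions within 1 kb of a Zfp start had levels of 71.4, 77.7 and 71.0 CPM per kb in libraries 1, 2 and 3. The 360 body regions of genes with a strand had 48.9, 51.5 and 51.7 CPM per kb. Every library was higher at starts, and the 3 start values did not overlap the 3 body values. The difference was 0.53 ± 0.07 on the log2 scale (SD, n = 3 libraries), or 1.45-fold. An exact sign-flip permutation test over the 3 libraries gave p = 0.25 (two-sided), which is the smallest p that 3 libraries allow, so no comparison of classes here can pass 0.05. This split by start was made after the data had been seen.

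**Figure D1:**
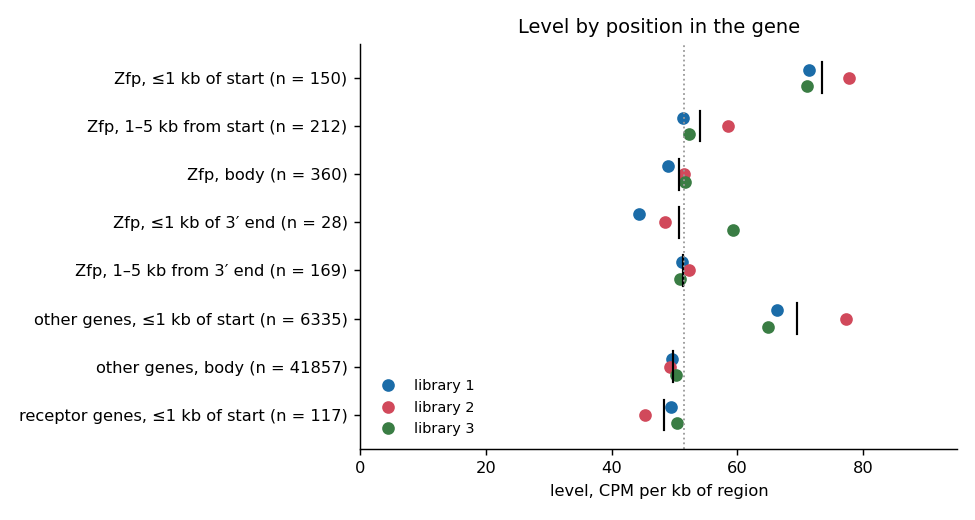
Level in CPM per kb (horizontal axis) of regions by position in the gene, for Zfp genes, other genes and olfactory or vomeronasal receptor genes. Points are the 3 libraries, black bars their means, n the number of regions, and the dotted line the level over all regions, 51.5. Zfp regions within 1 kb of the start sit between 71.0 and 77.7, and Zfp body regions between 48.9 and 51.7.

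Away from the first kb, levels were near that of the whole set. Regions 1 to 5 kb from the start (212) had levels of 51.3, 58.5 and 52.4 CPM per kb. Those 1 to 5 kb from the 3′ end (169) had 51.1, 52.2 and 50.8. The whole set stood at 51.5 CPM per kb, so apart from library 2 in the first class these lay within 1 unit of it. Close to the 3′ end there were only 28 regions within 1 kb, at 44.3, 48.5 and 59.3 CPM per kb. Starts exceeded these 3′ ends by 0.54 ± 0.25 on the log2 scale (SD, n = 3 libraries), higher in 3 of 3 libraries, with an exact sign-flip p of 0.25. In 1-kb bins, Zfp genes had 27.4 regions per 100 genes just upstream of the start and 18.2 just downstream. From 1 to 2 kb upstream the number was 5.23. Mean levels in these 3 bins were 74.6, 72.1 and 54.3 CPM per kb.

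**Figure D2:**
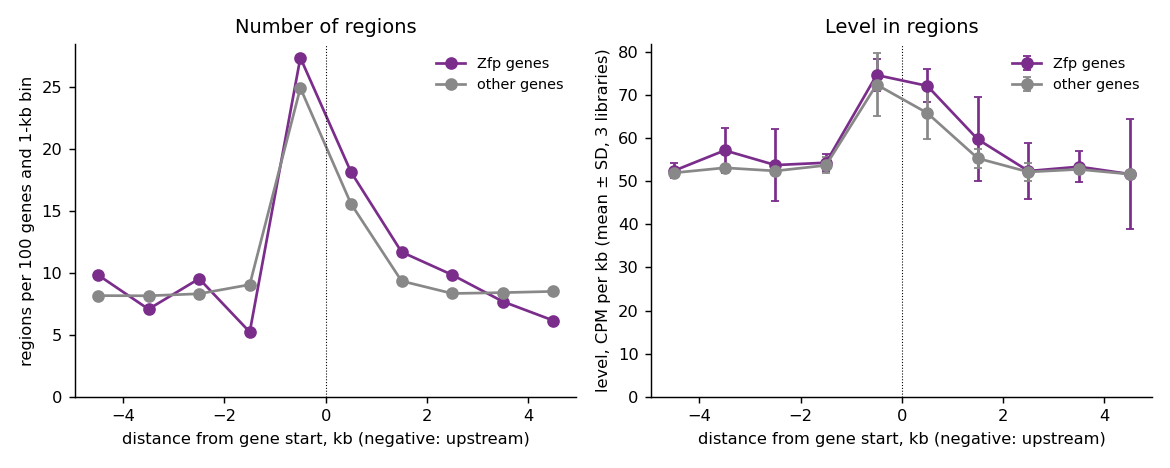
Regions per 100 genes (left) and level in CPM per kb, mean ± SD over 3 libraries (right), in 1-kb bins of distance from the gene start for 325 Zfp genes and 16132 other genes. Both measures peak within 1 kb of the start in both sets, and the Zfp level is 74.6 just upstream.

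Another view is the share of regions among the top 10% of all 151133 regions, ranked by the mean of 3 libraries, which were those at 64.0 CPM per kb or more. By construction 10% of all regions were in this group. Of the 150 regions at Zfp starts, 75 (50%) were in it, against 36 of 360 body regions (10.0%). Ranked within single libraries the shares were lower, at 28%, 30% and 30% of start regions and 6.94%, 9.17% and 11.9% of body regions. Of those 1 to 5 kb from the start 15.1% were in it, of those within 1 kb of the 3′ end 14.3%, and of those 1 to 5 kb from it 10.7%. The start regions were thus far above the 10% of all regions, and the other 4 classes lay between 10.0% and 15.1%. The share at starts was 21.3% with technical replicate 1 alone, the shallower one, and 50.7% with technical replicate 2 alone. For starts of other genes these shares were 17.2% and 43.9%. A stricter rule asks for the top 10% in each of the 3 libraries, which 0.645% of all regions met. It was met by 13 of the 150 start regions (8.67%) and by 0 of the 360 body regions. Across the 150 start regions, log2 CPM of pairs of libraries, not divided by width, correlated with r from 0.39 to 0.48. Across the 360 body regions r lay between -0.14 and 0.02. These correlations run over regions that share a library and its depth, and are given as a description. A region's width is the same in every library, with a median of 120.5 bp at starts and 109 bp in bodies. Its part in r was not tested.

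Other genes showed the same shape. Their 6335 regions within 1 kb of a start had levels of 66.3, 77.3 and 64.8 CPM per kb, with 44.8% in the top 10% of regions. Of these regions, 434 (6.85%) were in the top 10% in each library, and r between libraries was 0.46 to 0.47. Zfp starts were above them in 3 of 3 libraries, by 0.08 ± 0.06 on the log2 scale (SD, n = 3 libraries, exact sign-flip p = 0.25). In library 2 the difference was 0.01, so it was close to nothing there. Body regions of Zfp genes and of other genes differed by 0.04 ± 0.05 (SD, n = 3 libraries), higher in 2 of 3 libraries (exact sign-flip p = 0.50). Olfactory and vomeronasal receptor genes, which also lie in clusters and are silent in most tissues, had 117 regions within 1 kb of a start. Their levels were 49.4, 45.2 and 50.3 CPM per kb, and 5.13% of them were in the top 10%.

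When both ends of a gene were pooled, as first planned, the contrasts were smaller. The 668 end regions had 56.8, 61.7 and 57.7 CPM per kb, and the 568 body regions 49.2, 51.9 and 51.7. The log2 difference was 0.21 ± 0.05 (SD, n = 3 libraries), positive in 3 of 3 libraries (exact sign-flip p = 0.25, adjusted p = 0.38 over 3 planned comparisons). Ends were in the top 10% of regions in 155 cases (23.2%) and bodies in 60 (10.6%). The share of bodies was 8.24% without the chromosome 4 cluster described below, and 7.43% for body regions of other genes. Within single libraries, 14.5%, 18% and 16.6% of ends were in it. With technical replicate 1 alone the share of ends was 13.0%, against 11.4% for other genes. With ends narrowed to 1 kb it was 42.9%, against 34.7% for other genes. End regions of other genes stood at 55.4, 59.6 and 55.5 CPM per kb, with 19.3% in the top 10%. Zfp ends exceeded them by 0.05 ± 0.01 on the log2 scale in 3 of 3 libraries (SD, n = 3 libraries, exact sign-flip p = 0.25, adjusted p = 0.38). Just inside the 5-kb limit, 62 regions had a mean level of 51.3 CPM per kb, and 52 regions just outside it, at 5 to 6 kb, had 59.0.

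Clustered and single genes had like levels at their ends. End regions of clustered genes had 56.6, 62.5 and 58.9 CPM per kb, and those of single genes 57.1, 60.6 and 56.1. The 2 ranges overlapped, and the log2 difference was 0.03 ± 0.04 (SD, n = 3 libraries), higher for clustered genes in 2 of 3 libraries (exact sign-flip p = 0.50, adjusted p = 0.50). Its sign turned when genes were called clustered within 100 kb, and when only regions of 200 bp or wider were kept, to -0.01 in both cases. The share in the top 10% of regions was 23.1% for clustered and 23.3% for single ends. Ends that were in the top 10% in each library were 16 of 376 (4.26%) by clustered genes and 3 of 292 (1.03%) by single genes, with 0.645% over all regions. At starts alone, clustered genes had 69.3, 81.2 and 73.4 CPM per kb and single genes 75.1, 71.9 and 67.0. That difference was 0.06 ± 0.16 (SD, n = 3 libraries, exact sign-flip p = 0.50). Body regions were further apart. Those of clustered genes (129) had 56.4, 54.6 and 54.8 CPM per kb, and those of single genes (439) 47.1, 51.1 and 50.9. The ranges did not overlap. In the top 10% were 27 (20.9%) of the clustered and 33 (7.52%) of the single ones. Of those 27, 15 were among the 22 body regions of the chromosome 4 cluster described below. Those 22 had 66.0, 67.6 and 72.2 CPM per kb, above the clustered bodies as a whole. Clustered bodies were not valued without them, so the gap in level may rest largely on that cluster. The contrast of bodies was not tested. Around clustered genes there were 6.93 regions per 100 kb, around single genes 7.93, and around other protein-coding genes 7.43. Receptor genes had 4.34.

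Each gene was given a value, that of its highest end region by the mean of 3 libraries. A gene with more end regions has more chances at a high value. The top 10% of genes with an end region began at 102 CPM per kb and held 7.74% of all 20665 genes. It held 40 of the 388 Zfp genes (10.3%), of which 29 of 241 were clustered (12%) and 11 of 147 single (7.48%). In single libraries, where a gene took that library's own highest end region, the Zfp share was 10.3%, 9.28% and 7.22%. The Zfp share was 8.25% without library 1, and 6.96%, below the 7.75% of all genes, when counts were not divided by region width. With value and limit both taken within each library in this way, 1.5% of all genes reached the top in each of the 3. So did 8 Zfp genes (2.06%), namely Zfp319, Zfp809, Zfp68, Zfp955a, Zfp260, Zfp566, Zfp13 and Zfp959. Of these, 7 are clustered and Zfp319 is single. Below, values of single libraries are set against 102, the limit for the mean of 3 libraries. It is not each library's own limit: Zfp142 had 129 and 131 in libraries 1 and 2 but was top in 1 library. Of 34 top Zfp genes with a known strand, 27 owed their value to a region within 1 kb of the start and 1 to a region within 1 kb of the 3′ end. Of the 40 genes, 30 to 34 stayed in the top group with a library left out, 16 with technical replicate 1 alone, 25 with a 1-kb window and 32 with the nearest gene only. Only 7 did so among regions of 200 bp or wider, and 9 without division by width.

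Zfp319, a single gene on chromosome 8, had the highest value of the family. Its region (chr8:95332217-95332316) had 127, 232 and 165 CPM per kb, or 174 ± 53.1 (SD, n = 3 libraries), from 21, 36 and 34 reads. All 3 libraries were above the limit for the top genes. The region is nearer to Usb1 than to Zfp319, so Zfp319 had no value when each region was given to its nearest gene only, nor when the top 0.1% of regions were removed. With technical replicate 1 alone its value was 94.4, and that of Zfp688, described below, was 59.5. Zfp963 followed with 165 ± 59.8, and its library 1, at 104, was lowest. Zfp809, a KRAB protein that silences murine leukaemia provirus by binding the retroviral primer binding site, had 132, 141 and 207 CPM per kb. Those values gave a mean of 160 ± 41.2 (SD, n = 3 libraries), and the region is the one in capitals in its promoter above. Libraries 1 and 2 were close there and library 3 higher.

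Zfp955a had the tightest values of the leading clustered genes, at 161, 147 and 157 CPM per kb, or 155 ± 7.12 (SD, n = 3 libraries). Its neighbour Zfp955b had 152, 110 and 86.1. Zfp260 and Zfp566 share a region on chromosome 7 (chr7:30090519-30090609), so their value of 146 ± 18.6 is a single measurement. At Zfp688, Zfp772 and Zfp53 library 2 stood far above the others, with 244, 242 and 238 CPM per kb. The lower of the other two was 102, 92.6 and 75.2. For these 3 genes the SD was 76.2, 78.5 and 84.3, larger than the distance of the mean from the limit for the top genes. Zfp68 had 205, 147 and 125, with library 1 highest, and its value was 75.2 with the nearest gene only and with a 1-kb window. Zfp260 was at 78.1 under the same 2 settings, whereas Zfp566 stayed at 146. Zfp324 had 116, 117 and 206, with library 3 highest.

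Among single genes, Zfp958 followed Zfp319 with 197, 61.8 and 149 CPM per kb, and its library 2 was below the limit. Zfp516, a factor of brown fat differentiation, had 134, 143 and 108, all above 102. It was still not among the 8 genes that reached the top by each library's own limit. Zfp422, Zfp408, Zfp322a, Zfp142, Zfp512b, Zfp654 and Zfp703 had means from 103 to 119, and each had at least 1 library below the limit. With the nearest gene only, Zfp408, Zfp142 and Zfp512b were at 50.3, 73.7 and 52.3. At the other end, the lowest clustered genes were Zfp944 and Zfp758, which share a region at 36.2 ± 15.8, and Zfp27 at 37.0 ± 29.7. Zfp3 (37.3 ± 9.82), Zfp996 (38.6 ± 33.1) and Zfp804b (39.4 ± 37.6) were the lowest single genes (SD, n = 3 libraries). With so few reads, neighbours in this order did not differ beyond their spread.

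**Figure D3:**
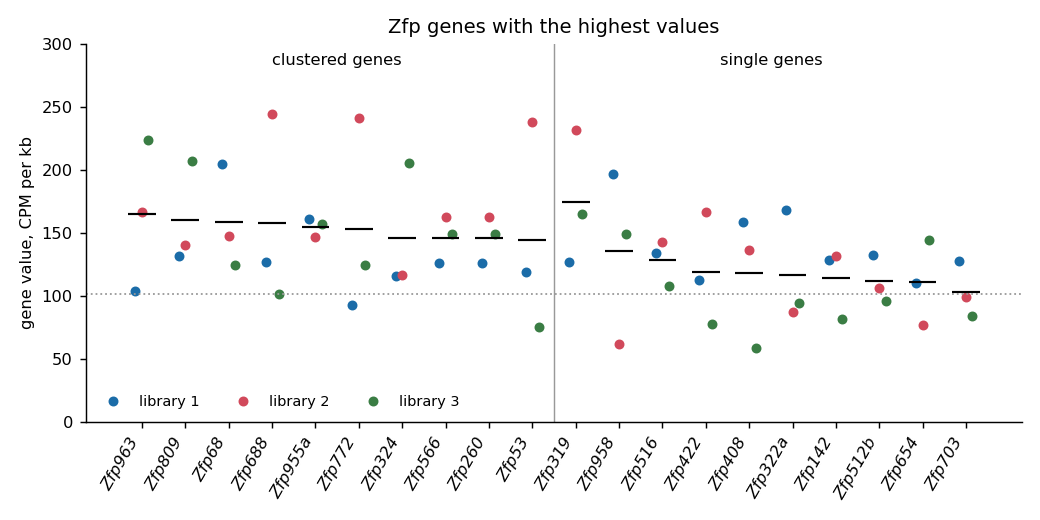
Gene value in CPM per kb for the 10 clustered and 10 single Zfp genes with the highest mean. Points are the 3 libraries, bars their means, and the dotted line is the limit of the top 10% of genes by the mean of 3 libraries, 102. The Zfp955a points lie between 147 and 161, whereas those of Zfp53 spread from 75.2 to 238.

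Genes with known roles were mostly in the middle of the range. Of 10 KRAB genes known for silencing retroelements or keeping imprints, all had an end region and 1, Zfp809, was in the top 10% of genes. The median of the 10 was 55.9 CPM per kb, against 61.2 over Zfp genes with an end region and 58.8 over all genes. Zfp57 and Zfp445, which keep methylation at imprinted loci, had 36.2, 116 and 14.6 and 25.1, 161 and 20.2 CPM per kb. In both, library 2 was high and the others were low. Zfp568, which represses a placental transcript of Igf2, had 68.4 ± 35.0, and Zfp932, a repressor of endogenous retroviruses, 41.9 ± 45.9 (SD, n = 3 libraries). The remaining 5 lay between 42.5 (Zfp30) and 76.6 (Zfp961).

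Zfp36, Zfp36l1 and Zfp36l2 differ from the rest of the family, since they bind AU-rich elements of mRNA through CCCH fingers and promote its decay. Their means were 83.6, 57.2 and 65.8 CPM per kb, and none was in the top group. Of 24 genes known in blood, leukaemia or general regulation, 22 had an end region and 1, the corepressor Zfp703, was in the top 10%, at 103 ± 22.1 (SD, n = 3 libraries). Zfp521, a cofactor in haematopoietic progenitors, and Zfp608 had no end region. Zfp64, which maintains MLL expression in MLL-rearranged leukaemia, had 52.8, 56.4 and 72.3 CPM per kb, with libraries 1 and 2 near the 51.5 of the whole set and library 3 above it. Zfp384, a fusion partner in acute leukaemia, had 91.1, 64.8 and 87.5. Zfp91, a ubiquitin ligase, had 86.7, 81.8 and 85.9, the smallest SD among the Zfp genes named, 2.61. Zfp143, whose human counterpart binds the motif described below, had 58.4, 83.1 and 26.1.

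KRAB corepressor genes and other heterochromatin genes were listed beside them. Of 16, 15 are autosomal and 13 had an end region. Cbx5, which encodes the heterochromatin protein HP1 alpha, had 135, 185 and 119 CPM per kb. Daxx, a histone chaperone of heterochromatin, had 118, 164 and 109. These 2 were in the top 10% of genes in every library, by each library's own highest end region. Trim28 had 79.7 ± 19.2 and Setdb1 91.0 ± 22.5 (SD, n = 3 libraries), below the limit of 102. Smarcad1 and Dnmt1 had no end region. Of the other zinc finger families, 3 of 11 Zkscan, 3 of 16 Zscan, 9 of 40 Zbtb, 1 of 16 Klf and 0 of 4 Zic genes were in the top 10%, which holds 7.74% of all genes. No Zic gene had an end region.

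The clusters with the most Zfp genes varied in how many regions they held and at what level. That on chromosome 13 (chr13:67038594-67827000, Zfp712 to Zfp273) has 23 genes, and 6 of its 42 regions were in the top 10%, with a level of 54.7 ± 0.76 CPM per kb (SD, n = 3 libraries). The 18 genes on chromosome 17 from Zfp677 to Zfp946 (chr17:21383707-22456689) had 31 regions, of which 6 were top regions. On chromosome 7, the 15 genes from Zfp84 to Zfp146 had 30 regions with 7 in the top 10%, and the 12 from Zfp180 to Zfp575 had 27 with 3. The 12 genes from Zfp871 to Zfp101 on chromosome 17 had 21 regions with 5, of which 3 were top regions in each library. Against the 10% of all regions, these shares ran from 11.1% to 23.8%.

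The sixth, on chromosome 4 (chr4:146449030-147849126, Zfp992 to Zfp933), stood apart. It has 12 genes and 31 regions, of which 20 (64.5%) were in the top 10%, the highest share of the 21 clusters with 10 or more regions. Ranked within single libraries, 25.8%, 22.6% and 32.3% were. Its levels were 69.0, 67.4 and 69.2 CPM per kb, all above those of the chromosome 13 cluster, which were 54.9, 55.3 and 53.8. Unlike at gene starts, 22 of the 31 were body regions and 1 lay within 1 kb of a start. Body regions here had 66.0, 67.6 and 72.2 CPM per kb and 15 of 22 were in the top 10%, against 45 of 546 (8.24%) for Zfp bodies elsewhere. None of the 31 was a top region in each of the 3 libraries. Among the 5 highest body regions of the family were 2 of Zfp978 in this cluster, at 101 ± 21.6 and 95.2 ± 19.2 CPM per kb. The others lay in Zfp672 (99.8 ± 37.7), Zfp607b (96.9 ± 12.6) and Zfp445 (90.9 ± 26.6; SD, n = 3 libraries).

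Regions were sparse there. The interval held 3.00 regions per 100 kb, the 1 Mb below it 3.1 and the 1 Mb above it 10.3. The high level was not limited to the genes: 8 of 12 regions in the interval that were not near a Zfp gene were also in the top 10%, as were 12 of 31 in the 1 Mb below it and 10 of 103 in the 1 Mb above. Over all of chromosome 4 the share was 13.9%. How uniquely reads align in this interval was not tested.

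**Figure D4:**
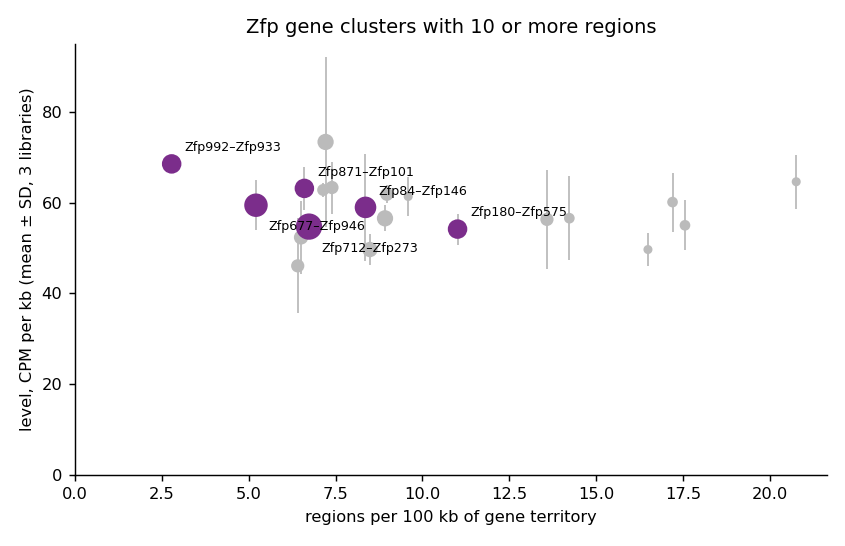
Regions per 100 kb of gene territory (horizontal) and level in CPM per kb, mean ± SD over 3 libraries (vertical), for 21 Zfp clusters with 10 or more regions. Point size follows the number of genes, and the 6 clusters with the most genes are coloured and labelled by first and last gene. The Zfp992 to Zfp933 cluster is at the left, with a level of 68.5.

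Promoter windows of 300 bases were available as 394 windows of the 325 genes. A region overlapped 127 of them (32.2%), against 25.4% of 20085 windows of all genes. A region in the top 10% overlapped 19% of Zfp windows and 15.6% of all. Base composition did not separate Zfp windows with and without a region: the median GC content was 54.3% and 54.7%, and the median number of CpG was 13 and 14. Over all genes windows with a region had 61.0% GC and 21 CpG, and those without 54.7% and 9.

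Motifs given by their letters were searched on both strands. ACTACAA, the core of the element that ZNF143 binds, was in 19 of 127 Zfp windows with a region (15%) and in 6 of 267 without (2.25%). Over all genes it was in 5.88% and 2.98%, and in 3.71% of all windows. With 1 window per gene, which removes repeated windows of a gene, it was in 16 of 105 Zfp genes with a region (15.2%) and in 5 of 220 without (2.27%). In other genes it was then in 5.80% and 3.26%. These are counts of letters, with no test, and a match is not a site.

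The ETS core CCGGAA was in 46.5% of Zfp windows with a region and 30.0% without, against 34.3% and 13.9% over all genes and 19.1% of all windows. TGGGAA, the Ikaros core, was in 40.9% and 32.2% of Zfp windows, and in 23.2% and 24.4% over all genes (24.1% of all windows). AAGATGGC (YY1) was in 4.72% and 4.87% of Zfp windows, and in 5.53% and 2.22% over all genes (3.06% of all windows). GCGCATGC (NRF1) was in 4.72% and 4.49%, and in 6.66% and 2.49% over all genes (3.55% of all windows). CCAAT, added after the sequences had been seen, was in 46.5% and 47.6% of Zfp windows, and in 44.2% and 36.1% over all genes (38.1% of all windows). So YY1, NRF1 and CCAAT letters were about as frequent in Zfp windows with a region as in those without.

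**Figure D5:**
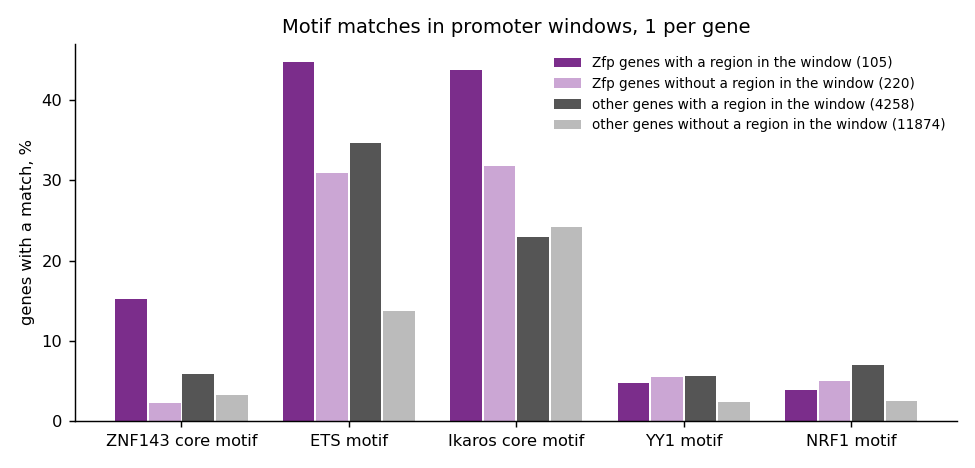
Percent of genes with a motif match in the promoter window (1 window per gene), for Zfp genes with and without a region in the window and for other genes with and without one; numbers of genes are in the legend. ZNF143 core matches are in 15.2% of Zfp genes with a region and 2.27% of those without.

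Some of the 19 windows overlap, and they hold 17 distinct matches to ACTACAA, 1 per gene. Of these genes 11 are clustered, and 13 matches lay wholly inside the region. In 7 of the 17 the letters TGGGAA directly adjoined the motif without sharing a base, so the 2 counts are not independent. Whether these letters are an Ikaros site or part of the longer element around ACTACAA was not tested. The stretches around 6 matches are printed to show this, read along the gene's strand (RefSeq windows, mm10), with the motif in capitals (ACTACAA, or TTGTAGT where it is on the opposite strand). In the first 4 the lower-case bases next to it spell TGGGAA on either strand. In the last 2 they do not, and ctccca stands in place of ttccca.
Zfp933: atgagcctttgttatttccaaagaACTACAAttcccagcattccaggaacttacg
Zfp128: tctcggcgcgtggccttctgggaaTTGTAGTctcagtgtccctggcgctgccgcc
Zfp108: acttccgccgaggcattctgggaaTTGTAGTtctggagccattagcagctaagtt
Zfp58: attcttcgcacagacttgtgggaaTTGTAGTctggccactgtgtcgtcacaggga
Zfp606: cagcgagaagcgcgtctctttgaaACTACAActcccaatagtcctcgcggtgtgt
Zfp691: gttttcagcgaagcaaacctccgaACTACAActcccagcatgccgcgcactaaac
These lie at chr4:147848420-147848474, chr7:12881143-12881197, chr7:24254707-24254761, chr13:67500518-67500572, chr7:12478257-12478311 and chr4:119174344-119174398. The region at Zfp933 had 147, 142 and 57.2 CPM per kb, and that at Zfp606 had 129, 71.3 and 133. At Zfp128 the values were 71.4, 158 and 98.6. For Zfp108 they were 92.7, 68.0 and 103, so all 4 of these regions had libraries on both sides of the limit for top genes. Zfp58 had 58.3, 88.9 and 40.2, which spread to both sides of the level of the whole set, with library 2 highest. In 9 of the 17 genes the region in the window was in the top 10% of regions, whereas 59.1% of Zfp windows with a region and 61.3% of all windows with a region held such a region.

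Differences between technical replicates and between libraries were tested across all regions with edgeR's quasi-likelihood test. Between technical replicates, with library as a block, 71 of 27452 tested regions (0.259%) had an adjusted p under 0.05. Of 321 Zfp regions that passed the filter on low counts, 1 was called, by Zfp36l1 (chr12:80108955-80109192). Its read counts in libraries 1, 2 and 3 were 0, 0 and 0 for technical replicate 1, and 20, 24 and 28 for technical replicate 2 (adjusted p = 0.034). Of counts of 10 or more, 84.7% to 87.4% were even in the first technical replicates and 58.0% to 61.2% in the second, so reads are not independent counts, and no fold is given. The call was lost under each alternative run for it, such as total reads as library size, DESeq2, and the filter grouped by technical replicate. That last filter was the first one run, and gave 0 calls among 149 Zfp regions. At an unadjusted p under 0.05 there were 32 of 321 Zfp regions (9.97%), against 6.86% of all tested regions. With total reads as library size these shares were 3.74% and 3.82%, with DESeq2 5.30% and 5.06%, and with the filter grouped by technical replicate 5.37% and 6.13%, so the difference was not kept.

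Between the 3 libraries, 4 of 27452 regions (0.0146%) were called by edgeR with Benjamini-Hochberg adjustment, and 0 of the 321 Zfp regions. At an unadjusted p under 0.05 there were 4 Zfp regions (1.25%), against 4.35% of all. DESeq2 also called 0 Zfp regions, with 6 at an unadjusted p under 0.05. The only spread this test can use is that between technical replicates, since a library was made once. No Zfp region differed detectably between libraries at this depth.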

How the data were processed

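CUT&RUN with an anti-IKZF2 antibody was analysed in 6 samples (3 libraries, 2 technical replicates each, groups from the sample titles), and 4 control antibody samples were not analysed here. The authors deposited raw read counts per region over a common set in mm10, and the submitters' processing notes name Bowtie2 2.3.3.1 and MACS2; no role, threshold or pooling is given in the sources used here. From the deposited counts, technical replicates were summed per library and expressed as CPM per kb. Genes, spans and windows came from RefSeq (GRCm38.p6). The members, gene lists and motifs were chosen with earlier results of these data known. Named genes were the 10 highest and 3 lowest of each kind (ties kept) and listed genes with known roles, and named clusters the 5 with the most genes (6 with a tie). Classes were compared by exact sign-flip permutation over libraries. Nothing states that libraries came from separate cultures, so spreads may be technical. Regions were tested with edgeR 4.0.16 (filterByExpr grouped by library, TMM) in R 4.3.3, with DESeq2 1.42.0 as an alternative, after checks on simulated data. Correlations used log2(CPM + 0.5), without division by region width, a log2 scale computed here from the deposited counts. Python was 3.11.15. Alternatives left out each library, used each technical replicate alone, and changed the windows, filters and scaling.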

Additional observations from a re-analysis of the deposited data

How the results depend on the processing

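No paired analysis was possible because the control antibody samples that share library numbers with the anti-IKZF2 samples were not analysed here; class differences were taken within each library, and edgeR's test of technical replicates kept library as a term. Zfp ends against bodies, Zfp ends against other ends, and Zfp starts against bodies kept their sign under every alternative run for them. Clustered against single ends turned to -0.014 (log2) with clusters within 100 kb and to -0.013 with regions of 200 bp or wider. The share of ends in the top 10% of regions was 16.8% to 21.1% with each library left out, 13.0% with technical replicate 1 alone, 42.9% with a 1-kb window and 31.3% with regions of 200 bp or wider. For ends of other genes these shares were 15.6% to 17.5%, 11.4%, 34.7% and 22.6%. The share of bodies was 9.51% to 10.7% with each library left out, 8.33% with regions of 200 bp or wider, 8.80% without division by width and 8.24% without the chromosome 4 cluster. For bodies of other genes these shares were 8.04% to 8.29%, 4.71%, 7.63% and 7.43%. The share of start regions was 39.3% to 43.3% with each library left out, 21.3% with technical replicate 1 alone, 48.3% with regions of 200 bp or wider and 52.0% without division by width. For starts of other genes these shares were 31.9% to 38.1%, 17.2%, 38.8% and 48.4%. The share of Zfp genes in the top 10% was 8.25% to 11.3% with each library left out, 6.44% (4.44% of all genes) with a 1-kb window, 1.80% (2.18% of all genes) with regions of 200 bp or wider and 6.96% (7.75% of all genes) without division by width. The number of regions per 100 kb was 0.793 for those of 200 bp or wider. Calls by technical replicate among Zfp regions were 0 with total reads, 0 with DESeq2, 0 with at least 10 reads in all, 0 with the filter grouped by technical replicate, and 0 with each library left out. The cause was not tested in any of these. Each of the 40 top genes stayed in the top 10% in 5 to 10 of 11 alternatives (median 8). Values of 59 named genes moved by more than their SD in 93 of 575 cases, of which 53 were without division by width, which changes the unit. The comparison at starts, the chromosome 4 cluster left out and the filter by technical replicate were chosen after seeing the data. KRAB and finger counts, planned from a protein table, were not run. Depth limits single regions, which hold about 31 reads.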
